A study of Homo sapiens with 6 samples.

Results

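The 10 genes described here encode core factors of nucleotide excision repair, the xeroderma pigmentosum and Cockayne syndrome genes XPA, XPC, DDB2, ERCC2, ERCC3, ERCC4, ERCC5, ERCC6 and ERCC8 together with ERCC1. They were picked by symbol, with earlier results of these data known. All 10 were found among the 47577 loci of the deposited table, each at a locus above the minimum for expression (a normalised read count of at least 10 in at least 3 libraries, which kept 17568 loci). PolyA plus RNA was sequenced from OVCAR3, a high-grade serous ovarian cancer line, exposed for 6 h to the solvent DMSO (n = 3 libraries) or to 200 nM THZ531 (n = 3), which binds covalently to CDK12 and CDK13 and blocks both kinases. Both groups are the same line, for which the labels name no genetic modification, and a single line, dose and time were measured. Titles and descriptions name THZ531, whereas the treatment protocol field names THZ1, a related compound, at the same 200 nM. The labels do not say whether the 3 libraries of a group came from separate cultures, so p-values measure the spread between these libraries.

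Nucleotide excision repair removes bulky, helix-distorting lesions such as ultraviolet photoproducts and platinum adducts. In global genome repair XPC and the DDB1-DDB2 complex find the lesion, while in transcription-coupled repair a stalled RNA polymerase II recruits CSB (encoded by ERCC6) and CSA (ERCC8). Both routes lead to TFIIH, whose helicases XPB (ERCC3) and XPD (ERCC2) open the DNA, then to XPA and replication protein A, and to the nucleases XPG (ERCC5) and ERCC1-XPF (ERCC4), which cut out the damaged stretch before the gap is filled and sealed. CDK12 and CDK13 phosphorylate the C-terminal domain of RNA polymerase II during elongation, and the question the comparison addresses is how the expression of the repair genes differed after their inhibition.

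The reads counted on loci ranged from 53054048 to 70986130 between libraries, and the deposited values are those counts after division by the size factor of the library. As a check of cell type, which cannot identify the line itself, 8 markers of serous ovarian cancer cells were read. All 8 were at or above 10 in every library, although PAX8 fell by 3.18 on the log2 scale. Their sum was 436910 to 447840 in DMSO and 556080 to 568810 in THZ531. Most of it was the keratins KRT7, KRT8 and KRT18, with means of 130310, 153780 and 114490 in DMSO and log2 fold changes of 0.08, 0.58 and 0.43. EPCAM (0.30) and MSLN (0.31) were also higher in THZ531. MUC16 was lower (-0.46), and the groups overlapped in WT1 (-0.17), so the sum does not describe each marker. Of 8 markers of immune, stromal and endothelial cells, CD3E was at 0 in every library and 6 were at or above 10 in every library, and the sum of the 8 was 2168 to 2513 in DMSO and 3779 to 4042 in THZ531. Most of that sum was COL1A1 (995 ± 47.5 and 2190.4 ± 141, SD, n = 3) and COL3A1 (724 ± 171 and 1080.1 ± 111), which rose as did VWF, whereas PTPRC, CD68 and PECAM1 were not regulated. The part of these other markers in the values below was not tested. CDK12 itself was at 6762 ± 105 in DMSO and 8835 ± 357 in THZ531 (SD, n = 3), and CDK13 at 3918 ± 149 and 3863 ± 44.8, which checks no label because the drug acts on the proteins.

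Sequences are given because the results return to them. The promoters of ERCC4, the gene with the lowest log2 fold change of the 10, and of DDB2 run from 250 bases before to 50 after the transcription start in RefSeq (GRCh38.p14), at chr16:13919904-13920203 and chr11:47214724-47215023, both on the plus strand. Capitals mark the hexamer TTCGGC in the first and the decamer motif of p53 response elements in the second. The third stretch, chr10:49518885-49519064 on the minus strand of hg38, is the end of an intronic locus of ERCC6 and the 60 bases that follow, with the last poly(A) signal hexamer AATAAA of the locus in capitals.
ERCC4 promoter: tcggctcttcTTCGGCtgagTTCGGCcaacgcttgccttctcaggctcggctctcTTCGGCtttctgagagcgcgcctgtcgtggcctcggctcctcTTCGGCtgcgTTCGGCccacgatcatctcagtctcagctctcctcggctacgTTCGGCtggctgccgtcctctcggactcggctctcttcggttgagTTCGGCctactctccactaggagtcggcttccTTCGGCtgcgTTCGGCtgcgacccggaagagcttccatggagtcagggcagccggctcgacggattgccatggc
DDB2 promoter: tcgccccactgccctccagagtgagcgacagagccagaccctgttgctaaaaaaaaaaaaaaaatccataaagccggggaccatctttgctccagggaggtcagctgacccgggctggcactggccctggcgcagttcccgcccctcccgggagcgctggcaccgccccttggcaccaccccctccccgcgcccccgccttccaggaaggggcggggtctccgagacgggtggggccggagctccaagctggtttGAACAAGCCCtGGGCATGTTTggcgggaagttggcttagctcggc
ERCC6 intron 5: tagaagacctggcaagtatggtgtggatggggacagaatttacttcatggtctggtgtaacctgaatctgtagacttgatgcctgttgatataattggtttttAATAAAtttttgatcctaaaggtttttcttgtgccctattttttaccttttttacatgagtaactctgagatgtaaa

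The hexamer TTCGGC occurs 9 times in the ERCC4 promoter, and the most in any other of the 34943 RefSeq promoters of this length is 6. At least 1 copy on either strand is found in 7.22% of them, and the hexamer was chosen after the sequence had been read. In the DDB2 promoter the p53 decamers lie 1 base apart, from 5 to 25 bases after the transcription start. A single decamer on either strand is present in 6.64% of promoters and a pair at most 13 bases apart in 0.0286%, and no decamer is present in this window of the XPC promoter. Among the promoters of the 10 genes, searched on both strands, the GC box GGGCGG is present in 7, the ETS core CCGGAAG in 4 and CCAAT in 2, while the shares over all promoters are 44.9%, 10.2% and 34.6%. The marked letters overlap none of these 3 motifs, and a match is a description of the letters, not of binding.

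Of the 10 genes, 3 fell and 1 rose by the study's criteria (fold change of at least 1.5 and unadjusted p of at most 0.05, here from limma on the log2(value + 1) scale). XPC, DDB2 and ERCC4 fell, XPA rose, and the other 6 were not regulated. These 4 of 10 (40%) stand beside 39.5% of all 17568 expressed loci, the 3 that fell beside 23.9% and the 1 that rose beside 15.7%, so the share of regulated genes was near that of the transcriptome. At any fold, 8 of the 10 had an adjusted p of at most 0.05 (Benjamini-Hochberg over all loci), beside 68.6% of all loci. Of these 8, 2 were higher and 6 lower in THZ531, beside 6073 higher and 5986 lower among the 17568 loci. The THZ531 and DMSO libraries did not overlap in 8 of the 10, beside 71.7% of all loci. The median log2 fold change was -0.39 over the 10 and -0.01 over all expressed loci, and 8 of the 10 values were below 0, as were 50.3% of all loci.

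**Figure D1:**
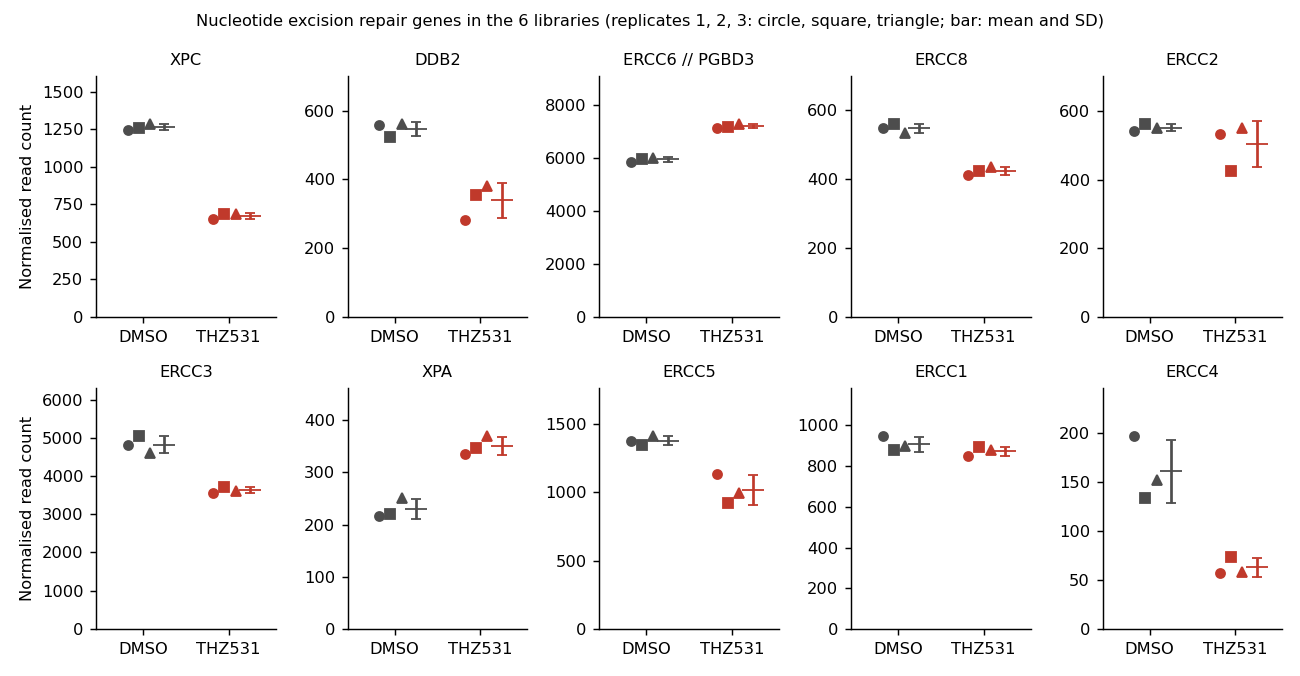
Normalised read count (y axis, from 0) of each of the 10 genes in the DMSO (grey) and THZ531 (red) libraries, with replicates 1, 2 and 3 as circle, square and triangle and a bar for the mean and SD. The groups are apart in 8 genes and overlap in ERCC1 and ERCC2.

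Both lesion-binding factors of global genome repair fell. XPC (chr3:14145147-14178673, minus strand, 16 exons) was at 1249, 1257 and 1286 normalised reads in the DMSO libraries and at 651, 685 and 684 in the THZ531 libraries. Every THZ531 library lay below every DMSO library, and the SE was the smallest among the 4 regulated genes. The means were 1264 ± 19.6 and 673 ± 19.3 (SD, n = 3), and XPC fell by 0.91 on the log2 scale (SE 0.07, limma adjusted p = 5.6e-09). In such bulk samples fewer cells with a transcript and less transcript per cell cannot be told apart. DDB2 (chr11:47214962-47239217, plus strand, 10 exons), which binds photoproducts and hands them to XPC, was at 557, 524 and 561 in DMSO and at 282, 355 and 380 in THZ531. The groups did not overlap, and THZ531 replicate 1 was the lowest of its group. DDB2 fell by 0.70 (SE 0.11, limma adjusted p = 4.5e-05), from 547.5 ± 20.2 to 339 ± 50.8 (SD, n = 3). Without THZ531 replicate 1 its log2 fold change was -0.57, which is short of 1.5-fold.

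None of the partners of these factors fell. RAD23B, which stabilises XPC, was at 12406 ± 457 in DMSO and 18047 ± 243 in THZ531, and DDB1, the adaptor to which DDB2 binds, at 12770 ± 148 and 17390 ± 529 (SD, n = 3), with log2 fold changes of 0.54 and 0.45 that are short of 1.5-fold. Of 7 partners of global genome recognition, 1 rose and 0 fell, beside 15.7% and 23.9% of all expressed loci, with a median log2 fold change of 0.19. The gene that rose was CUL4B, a scaffold of the ubiquitin ligase that contains DDB1, from 4063 ± 32.2 to 6153 ± 180.0 (log2 fold change 0.60, SD over n = 3, limma adjusted p = 2.1e-09).

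The genes of the stalled polymerase branch differed in sign from each other. ERCC6 encodes CSB, the ATPase that binds the stalled polymerase, and is joined in the table with PGBD3, a transposase-derived gene inside it, so the value cannot be assigned to either alone. This joined locus (chr10:49434881-49539543, minus strand) was at 5857, 5980.3 and 6021 in DMSO and at 7129, 7185 and 7285 in THZ531. All THZ531 libraries were above all DMSO libraries, at a log2 fold change of 0.27 (SE 0.04, limma adjusted p = 6.5e-06) that is below the 1.5-fold criterion. How far an intronic locus inside it, described below, adds to this value was not tested. Scaled to RPL34, a ribosomal protein transcript, the sign turned to -0.22. ERCC8 (chr5:60866454-60945070, minus strand, 12 exons), the CSA subunit of a ubiquitin ligase, was at 550.2, 560.5 and 533 in DMSO and at 412, 423 and 437 in THZ531. The groups did not overlap, and its log2 fold change of -0.37 (SE 0.09, limma adjusted p = 0.0015) was also below 1.5-fold. Of 7 partners of transcription-coupled repair 0 rose and 1 fell, beside 15.7% and 23.9% of all expressed loci, with a median of 0.30. The gene that fell was UVSSA, which brings TFIIH to the stalled polymerase. It was at 143, 156 and 132 in DMSO and at 59.2, 73.9 and 53.5 in THZ531, and it fell by 1.20 on the log2 scale (limma adjusted p = 7.8e-05).

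In TFIIH the log2 fold changes of both helicase genes were below 0 and short of 1.5-fold. ERCC3 (chr2:127257290-127294176, minus strand, 15 exons), which encodes the translocase XPB, was at 4811, 5048 and 4601 in DMSO and at 3552, 3716 and 3619 in THZ531. Its groups were apart, and its log2 fold change of -0.41 (SE 0.05, limma adjusted p = 7.4e-07) did not reach 1.5-fold. ERCC2 (chr19:45349837-45370918, minus strand, 23 exons), which encodes the helicase XPD, was at 541, 562 and 552 in DMSO and at 533, 426 and 552 in THZ531. Here the groups overlapped, and the low value of THZ531 replicate 2 set most of the spread. The log2 fold change of -0.14 had a 95% interval from -0.36 to 0.08 (limma adjusted p = 0.24).

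Among the other 8 TFIIH genes, 2 fell and 1 rose, beside 23.9% and 15.7% of all expressed loci. GTF2H1, the p62 core subunit, went from 3167 ± 104 to 1738 ± 108 (SD, n = 3), and fell by 0.87 (limma adjusted p = 1.1e-09). GTF2H2, the p44 core subunit, fell by 0.84, from 1891 ± 80.1 to 1053 ± 39.0 (SD, n = 3), with the reservation that it shares near-identical copies on chromosome 5 to which reads could be split. CCNH, the cyclin H of the CDK-activating kinase module, rose from 1297 ± 113 to 2112 ± 49.0 (SD, n = 3, log2 fold change 0.71, limma adjusted p = 7.4e-08). With the 10 TFIIH genes divided after their values had been seen into 7 of the core and 3 of the kinase module, 6 of 7 core genes were below 0 (log2 fold changes -0.87 to 0.20) and 3 of 3 kinase genes above it (CDK7 at 0.50, CCNH at 0.71, MNAT1 at 0.39). Of all expressed loci 50.3% were below 0. Among the core genes, the groups overlapped in ERCC2 and GTF2H4 (-0.16), both below 0, and in GTF2H5 (0.20), above it. The mean log2 value of the kinase module minus that of the core, which no scaling of a library can alter, was 0.27, 0.22 and 0.26 in DMSO and 1.12, 1.18 and 1.09 in THZ531. The 3 THZ531 libraries were apart from the DMSO libraries by a mean difference of 0.88 on this log2 scale, given with no test since the division followed the values.

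**Figure D2:**
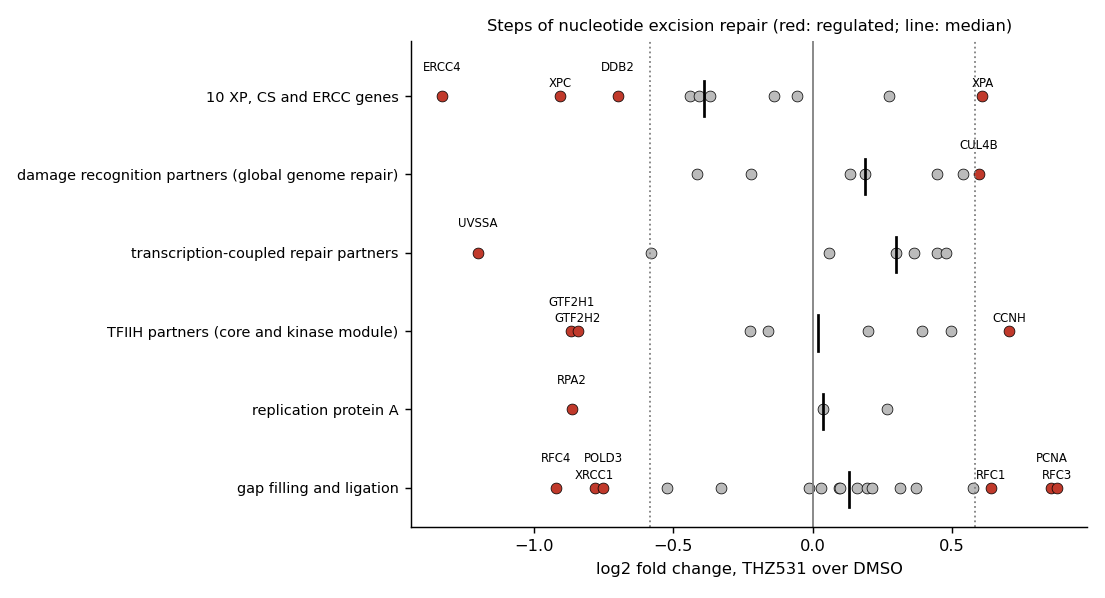
Log2 fold change, THZ531 over DMSO, on the x axis for the 10 genes and for 43 partner genes by step of the pathway (y axis), 1 point a gene, red and named where regulated, with a vertical bar at the median of each row and dotted lines at 1.5-fold. Regulated genes lie on both sides of 0, and the median of the 10 genes is -0.39 while that of the 43 partners together is 0.16.

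XPA was the only gene of the 10 that rose. XPA (chr9:97674909-97697357, minus strand, 6 exons), which verifies the lesion and holds the repair complex together, was at 217, 221 and 251 in DMSO and at 335, 347 and 369.8 in THZ531. The groups did not overlap. It rose by 0.61 on the log2 scale, from 229.6 ± 18.9 to 350.5 ± 17.7 (SD, n = 3) normalised reads (SE 0.12, 95% interval 0.36 to 0.86, limma adjusted p = 0.00026). The rise stood close to the 1.5-fold threshold and went below it without DMSO replicate 1 (0.57), DMSO replicate 2 (0.58) or THZ531 replicate 3 (0.57). Scaled to the same total its log2 fold change was 0.37, and scaled to RPL34 it was 0.12. In replication protein A, the single-strand binding complex that works beside XPA, RPA2 fell from 1508 ± 92.5 to 827 ± 49.5 (SD, n = 3, log2 fold change -0.87, limma adjusted p = 1.9e-08), and the other 2 subunits were not regulated.

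Of the nuclease genes, ERCC4 had the largest fold decrease among the 10. ERCC4 (chr16:13920154-13952348, plus strand, 11 exons), the catalytic XPF subunit of the nuclease that cuts on the 5′ side of the lesion, was at 197, 134 and 152 in DMSO and at 56.7, 73.9 and 58.0 in THZ531. All THZ531 libraries were below the lowest DMSO library, although the DMSO libraries were themselves spread widely. It fell by 1.33 on the log2 scale (SE 0.21, 95% interval -1.78 to -0.88, limma adjusted p = 3.8e-05), from 161 ± 32.6 to 62.9 ± 9.57 (SD, n = 3), and was alone among the 10 in passing a fold change of 2. A lower log2 fold change was found for 10.4% of all expressed loci. ERCC1 (chr19:45407334-45478828, minus strand, 10 exons), the partner without which XPF is unstable, was at 948, 879 and 897 in DMSO and at 848, 892 and 877 in THZ531. These groups overlapped, with a log2 fold change of -0.06 and a 95% interval from -0.20 to 0.09 (limma adjusted p = 0.48). ERCC5 (chr13:102845855-102875995, plus strand, 15 exons), which encodes XPG, the nuclease on the 3′ side, was at 1377, 1347 and 1412 in DMSO and at 1137, 924 and 995 in THZ531. All THZ531 libraries were lower, and the log2 fold change of -0.44 (SE 0.07, limma adjusted p = 6.7e-05) was below 1.5-fold. GENCODE places a BIVM-ERCC5 readthrough gene over ERCC5 on the same strand, so reads of both cannot be told apart.

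In gap filling and ligation, 3 of 18 genes rose, 3 fell and 12 were not regulated, beside 15.7% of all expressed loci that rose and 23.9% that fell. The median log2 fold change of the 18 was 0.13. The sliding clamp PCNA rose from 6136 ± 103 to 11121 ± 300.1 (SD, n = 3, log2 fold change 0.86, limma adjusted p = 1.4e-11). Subunits of its loader, replication factor C, changed in both directions, as RFC3 rose by 0.88 while RFC4 fell by 0.92. XRCC1, the scaffold of the ligase LIG3, fell by 0.78. Over all 43 partners 5 rose and 7 fell (27.9%, beside 39.5% of all loci), and 36 had an adjusted p of at most 0.05, beside 68.6% of all loci. Of these 36, 23 were higher and 13 lower, beside 6073 higher and 5986 lower among the 17568 loci.

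Whether the smaller changes passed the 1.5-fold criterion depended on how libraries were scaled, and of the 10 genes ERCC6 // PGBD3 alone changed sign, with RPL34. The median log2 fold change of all expressed loci moved by -0.24 when libraries were scaled to the same total and by -0.49 when they were scaled to RPL34. XPC, DDB2 and ERCC4 fell under each of these scalings. ERCC3, ERCC5 and ERCC8 passed the 1.5-fold criterion downward with the same total (log2 fold changes -0.65, -0.68 and -0.61) and with RPL34 (-0.90, -0.93 and -0.86), and so did ERCC2 with RPL34 (-0.63). Each scaling multiplies a whole library, so it moves all loci together, and relative to the shift of the median the 10 values stayed nearly where they were.

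**Figure D3:**
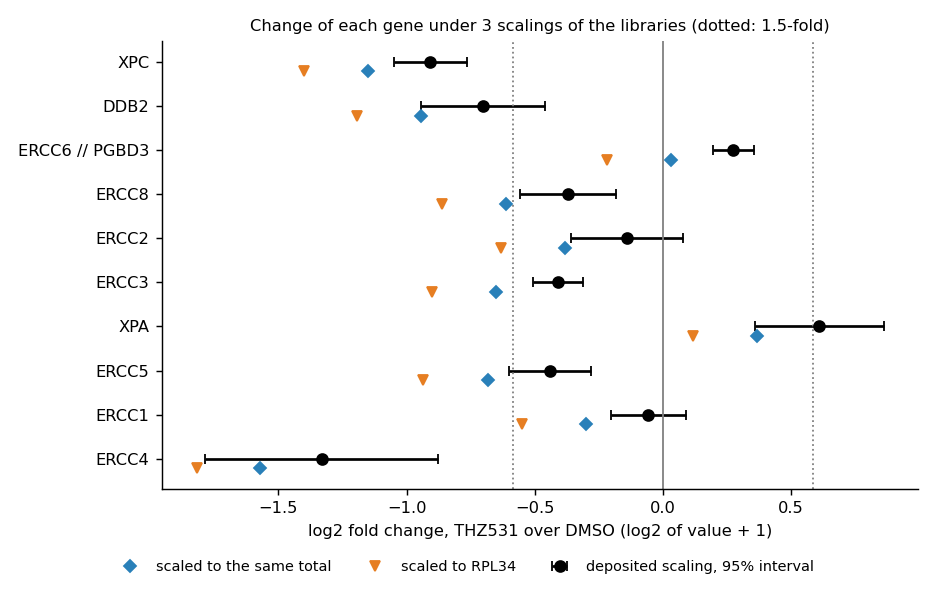
Log2 fold change, THZ531 over DMSO (x axis), of each of the 10 genes (y axis) under the deposited scaling (black, with 95% interval), scaled to the same total (blue) and scaled to RPL34 (orange), with dotted lines at 1.5-fold. XPC, DDB2 and ERCC4 stay to the left of the line at 0 and past 1.5-fold under all 3 scalings, and ERCC6 // PGBD3 changes sign under RPL34.

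Ratios of partner genes within a library are free of the scaling and were therefore compared. The 6 pairs were chosen after the values had been seen, and the ratios are of read counts, not per length. The ratio of ERCC4 to ERCC1, the subunits of the same nuclease, was 0.208, 0.152 and 0.169 in DMSO and 0.0669, 0.0828 and 0.0661 in THZ531. The groups did not overlap, and the mean log2 ratio differed by -1.29. XPC to RAD23B went from 0.102 ± 0.00314 to 0.0373 ± 0.00149 (log2 change -1.45), and DDB2 to DDB1 from 0.0429 ± 0.00176 to 0.0195 ± 0.00336 (-1.15), each as the mean ± SD of 3 ratios. In both pairs every THZ531 ratio was below every DMSO ratio. The ratio of XPA to RPA1 was 0.0335 ± 0.00364 and 0.0498 ± 0.00323 (log2 change 0.57), and that of ERCC6 // PGBD3 to ERCC8 was 10.9 ± 0.368 and 17.0 ± 0.317 (0.64). The ratio of ERCC3 to ERCC2 overlapped between the groups, at 8.74 ± 0.352 and 7.31 ± 1.22 (log2 change -0.27). The ratios are given with no test, since the pairs were chosen by their values.

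**Figure D4:**
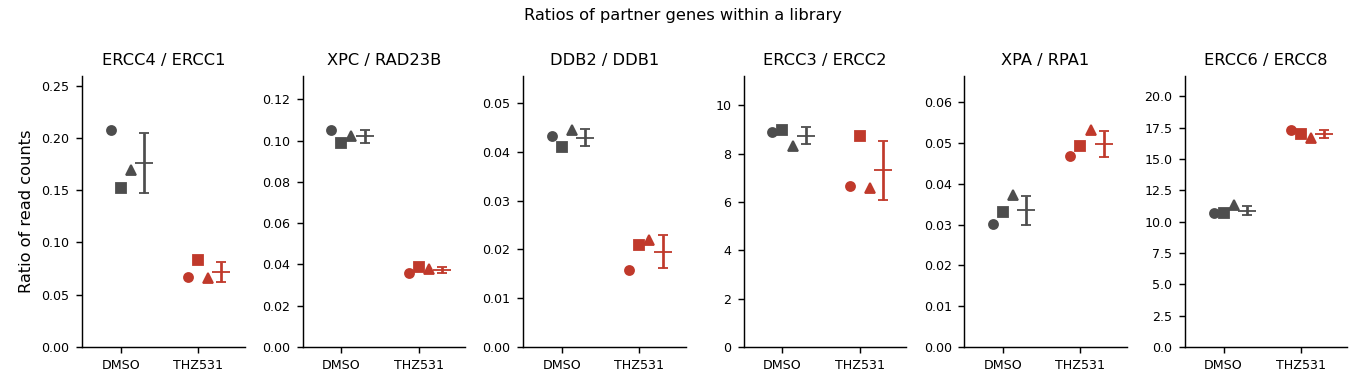
Ratio of the read counts of a gene to those of its partner in each library (y axes from 0) for DMSO (grey) and THZ531 (red), with replicates 1, 2 and 3 as circle, square and triangle and a bar for the mean and SD. ERCC4, XPC and DDB2 are lower and XPA and ERCC6 // PGBD3 higher against their partners in all 3 THZ531 libraries, and ERCC3 to ERCC2 overlaps.

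Inside ERCC6 the table holds an intronic locus with a far larger difference than the gene's own. This locus has no symbol, spans 2610 bases at chr10:49518945-49521554 and covers bases 2479 to 5088 of intron 5 (chr10:49506013-49524032, 18020 bases, the longest intron of the MANE transcript). It was at 184, 256 and 184 normalised reads in DMSO and at 1625, 1628 and 1638 in THZ531. The THZ531 values were close to each other and far above all DMSO values. The mean rose 7.84-fold, from 208 ± 41.7 to 1630.2 ± 7.10 (SD, n = 3), with a log2 fold change of 2.98 (SE 0.11, 95% interval 2.74 to 3.22, limma adjusted p = 3.6e-12). It remained at 2.74 with the same total and at 2.49 with RPL34. A further locus of 29 bases, at bases 105 to 133 of the intron, was at 0, 3.71 and 3.19 in DMSO and at 23.9, 14.8 and 20.5 in THZ531. No fold or test is given for it, since it passed the minimum for expression only through the THZ531 libraries, and it fell short of that minimum in 3 of the 6 fits with 1 library removed.

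The printed stretch of intron 5 shows how the longer locus ends. The intron holds 12 copies of AATAAA, the most common poly(A) signal, with 3 before the locus and 3 within it, and the last of those within starts at base 5072, leaving 11 bases between the hexamer and the end of the locus. The next annotated exons in intron 5 begin 1823 bases further on, at base 6912, and belong to 4 ERCC6 transcripts of GENCODE, 3 of them protein coding, in which PGBD3 has no gene entry of its own. An annotated ERCC6 transcript that retains the start of the intron ends at base 1744, before the locus begins. The strand of this locus was inferred from the order of locus identifiers, which gave the right strand for 98.7% of 458 named loci. Whether its reads belong to transcripts that end in the intron, to unspliced RNA or to another transcript cannot be told from counts per locus. Its means of 208 in DMSO and 1630.2 in THZ531 stand beside 5953 and 7199 for ERCC6 // PGBD3. How far the locus adds to the value of ERCC6 // PGBD3 was not tested.

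**Figure D5:**
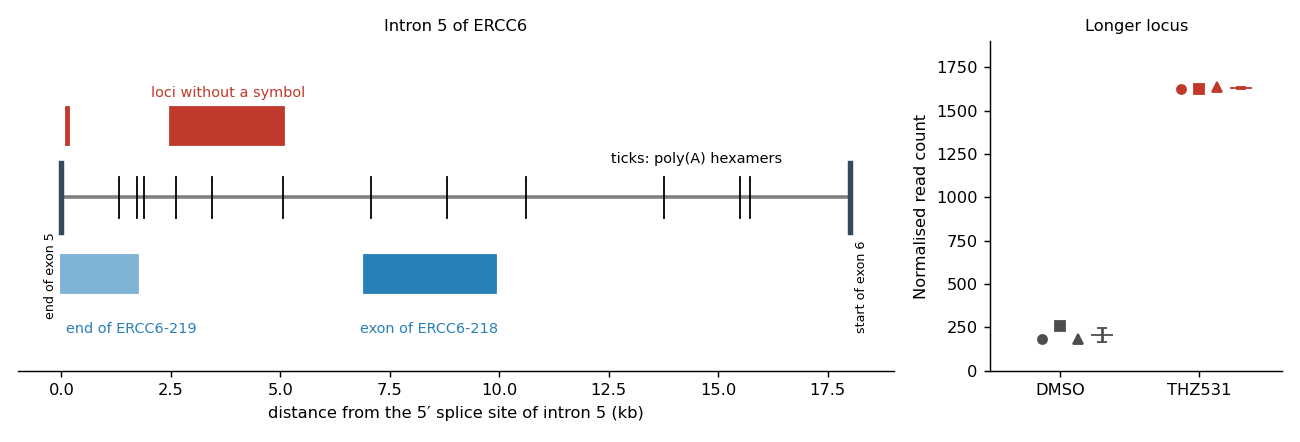
Left, intron 5 of ERCC6 drawn to scale from its 5′ splice site (x axis, kb), with the loci without a symbol in red (the short locus widened to be visible), poly(A) signal hexamers as ticks and, in blue, the end of a retained-intron transcript and the longest of the exons that begin at base 6912. Right, normalised read count (y axis) of the longer locus, 184 to 256 in the DMSO and 1625 to 1638 in the THZ531 libraries, with the mean and SD.

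XPC and DDB2 are also known targets of p53, which OVCAR3 carries in mutated form. A list of 20 p53 target genes held 5 that rose and 5 that fell, beside 15.7% and 23.9% of all expressed loci, and without XPC and DDB2, 5 of 18 rose and 3 fell, with a median log2 fold change of 0.21. POLH, a translesion polymerase, fell from 333 ± 34.9 to 120.4 ± 16.0 (SD, n = 3, log2 fold change -1.46, limma adjusted p = 3.1e-07), and PLK3, a stress kinase, fell by 1.34. In the other direction ZMAT3, an RNA-binding protein, rose by 1.12 and BBC3, which encodes the apoptosis inducer PUMA, by 1.04.

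Levels of different genes were compared per kb of exon in the MANE transcript. For ERCC6 // PGBD3 the joined count was divided by the exon length of ERCC6 alone, so its level and place cannot be assigned to ERCC6. In DMSO the order was ERCC3 (1773 normalised reads per kb), ERCC6 // PGBD3 (661), ERCC5 (355), XPC (346), DDB2 (302), ERCC1 (269), XPA (164), ERCC2 (134), ERCC8 (58.2) and ERCC4 (23.8). Only the neighbours ERCC5 and XPC overlapped between libraries in this order. In THZ531 the order of levels per kb was ERCC3 (1335), ERCC6 // PGBD3 (799.9), ERCC5 (262), ERCC1 (258), XPA (250.3), DDB2 (187), XPC (184.5), ERCC2 (123), ERCC8 (45.0) and ERCC4 (9.29). ERCC5 overlapped ERCC1, ERCC1 overlapped XPA, and DDB2 overlapped XPC. XPA had thus moved from below XPC and DDB2 to above both, and ERCC4 remained the lowest of the 10.

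The genes with the nearest pattern were sought for the members at both ends, by the Euclidean distance of centred log2 values over the 6 libraries among 11687 candidates with a single symbol and a mean of at least 100. For ERCC4 the nearest were DZANK1 (0.27), C1orf74 (0.30) and FAT2 (0.31), and for XPA they were BEST1 (0.11), F3 (0.11) and AMMECR1L (0.11).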

How the data were processed

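PolyA plus RNA of 3 DMSO and 3 THZ531 libraries was compared. Per the labels and the methods of the study, libraries were made with a stranded mRNA kit, and the authors mapped reads to hg38 with STAR (2.7.5a in the submitters' processing notes, another version in the methods), counted them with featureCounts on FAST DB and deposited a signal, namely counts divided by the DESeq2 size factor of each library. Whether counting used strand is not given in the sources used here. In each library 100% of the deposited values up to 1000 reads were whole multiples of the value of 1 read (tolerance 0.1 reads), so 53054048 to 70986130 reads per library were recovered. Chi-square per degree of freedom between replicates was 4.59 to 23.7, so replicates differed by more than sampling noise. The table joins several symbols at 360 loci.

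log2(value + 1) was tested with limma 3.58.1 (trended variance, no covariates, R 4.3.3) over the 17568 loci that reached 10 in at least 3 libraries, and folds of low genes are understated on this scale. A gene is called regulated from 1.5-fold upwards with an unadjusted p up to 0.05, as in the study, and adjusted p-values are Benjamini-Hochberg over all loci. Scripts were tested on simulated data. Recovered reads were also tested with edgeR 4.0.16 and DESeq2 1.42.0. Exon structures came from GENCODE v44 and promoters from RefSeq. The 10 genes and all lists were chosen with earlier results of these data known. Named are the 10 genes, up to 4 regulated genes per list with the largest change and a mean of at least 100, and the 3 nearest patterns of the members with the highest and lowest log2 fold change. The pairs for ratios, the TFIIH modules, the intronic locus, RAD23B and DDB1, and CDK7 and MNAT1 were chosen after values were seen. Alternatives were pseudocounts of 0.1 and 10, no minimum and a minimum of 50, 3 other scalings, a block for the replicate number, adjusted in place of unadjusted p, a 2-fold criterion, limma with no variance trend, both count tools, and the removal of each library.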

Additional observations from a re-analysis of the deposited data

How the results depend on the processing

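Counts of calls depended on the scaling and on the fold criterion. With the same total, 6 of the 10 genes fell and 0 rose, with 7262 of 17568 loci regulated, and with RPL34, 7 were regulated, all 7 falling and 0 rising, with ERCC6 // PGBD3 at -0.22 and 8602 loci regulated. At a fold change of 2, 1 of the 10 genes was regulated (1 fell, 0 rose), as were 1 of the 43 partners and 4042 loci in all. Leaving out 1 library at a time, 3 to 4 of the 10 genes were regulated, 2 to 3 fell and 0 to 1 rose, with 12 to 13 partners and 6453 to 6631 loci. XPA was no longer called without DMSO replicate 1, DMSO replicate 2 or THZ531 replicate 3, nor DDB2 without THZ531 replicate 1. XPC, ERCC4 and the longer locus in intron 5 of ERCC6 (log2 fold change 2.90 to 3.14 with a library left out) kept direction and call in every alternative run except the fold change of 2, which XPC did not reach. Deviations of libraries with the same replicate number correlated at 0.00168, 0.0186 and -0.0393, not every library correlated best with its own number, and the libraries share only a number. With the replicate number as a block 4 of the 10 genes (3 fell, 1 rose), 12 partners and 6918 loci were regulated. The count over all loci was 6948 in limma, 6863 in edgeR and 6788 in DESeq2. Low counts limit ERCC4 and the shorter intronic locus, intervals cover the spread between 3 libraries only, and RPL34 itself was at 12999 ± 1179.5 in DMSO and 18247 ± 86.8 in THZ531, so scaling to it assumes that this difference is technical.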

Other observations

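Of 14 other loci of the table that overlap the 10 genes, 8 were expressed, and 9 have no symbol. FOSB, an immediate early transcription factor on the opposite strand within the span of the ERCC1 locus, was at 81.0, 67.7 and 57.4 normalised reads in DMSO and at 171, 158 and 261 in THZ531, and it rose by 1.48 on the log2 scale (SE 0.22, limma adjusted p = 1.8e-05). POLR1G, a subunit of RNA polymerase I that overlaps the end of ERCC1, had a log2 fold change of -0.25, KLC3, a kinesin light chain over the end of ERCC2, one of 0.37, and the taurine transporter SLC6A6, whose locus spans XPC, one of 0.03, none of them past 1.5-fold. Since the strand setting of the counting is not given, how far these opposite-strand genes share reads with ERCC1, ERCC2 and XPC was not tested. A locus in intron 12 of ERCC3 was at 51.9 ± 12.6 and 64.8 ± 3.88, and one in intron 3 of DDB2 at 13.9 ± 11.3 and 11.5 ± 10.2 (SD, n = 3), with limma adjusted p = 0.26 and 0.57.

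Gene length was set beside the change as a description, across genes, which are not independent replicates and share the 6 libraries. Over the 10 genes the log2 fold change and the gene span had Pearson's r = 0.01 and Spearman's rho = -0.18. Without the joined ERCC6 // PGBD3 locus, a removal that was not planned, these were r = -0.32 and rho = -0.50 over 9 genes. For the same 9 genes the first intron gave r = -0.10 and rho = -0.22, and the longest intron r = -0.05 and rho = -0.13. Exon length gave r = -0.50 and rho = -0.30. Over 52 genes with their partners the gene span gave r = -0.06 and rho = 0.02. The length of the first intron gave r = 0.22 and rho = 0.22 over the 52.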
